A study of Mus musculus with 3 samples.

Results

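Glucose transport, glycolysis and the entry of pyruvate into mitochondria were followed through 33 genes in RNA immunoprecipitated with tagged ribosomes from mouse hearts. The 33 genes were chosen by symbol as glucose and lactate transporters, glycolytic enzymes and genes that control pyruvate dehydrogenase. All 33 were listed among the 17583 genes of the deposited table. For 7 steps the list holds an isoform that is typical of muscle or heart next to a counterpart that other cell types use, so that isoforms could be compared within each mouse.

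The data came from 3 EC-RiboTag mice of the genotype Cdh5-CreERT2;Rpl22tm1.1Psam. In these mice a Cre recombinase driven by the endothelial Cdh5 promoter and induced with tamoxifen switches the ribosomal protein Rpl22 to a version with a hemagglutinin tag, and tagged ribosomes are immunoprecipitated from the homogenized heart. By the labels the hearts were taken on day 7 after coronary ligation, while the study's RiboTag methods name no infarction. The study's legend for its EC-RiboTag sequencing (n = 3) names no infarction either. Elsewhere the study describes EC-RiboTag RNA from separate zones of infarcted hearts at the same day, the remote zone (RZ) among them, measured by qRT-PCR. The labels do not explain the letters Rz in the titles of the samples, so whether a whole heart, with or without infarction, or its remote zone was sequenced cannot be told. Age and sex of these mice are not given in the labels. The 3 libraries are biological replicates of a single group, and no library of input RNA or of control mice was analysed here. All values are therefore levels within the immunoprecipitate, and in such bulk samples fewer cells of a type and less RNA per cell cannot be told apart.

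Glucose enters cells through facilitative transporters of the Slc2a family, is trapped by hexokinase, and is split and oxidized to pyruvate in the cytosol. Pyruvate is either reduced to lactate and exported or oxidized in mitochondria by the pyruvate dehydrogenase complex, which pyruvate dehydrogenase kinases switch off. Endothelial cells are known to rely largely on glycolysis, whereas cardiomyocytes oxidize mainly fatty acids and use a set of muscle isoforms for several glycolytic steps.

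The deposited values are read counts per gene that the authors divided by a size factor for each library and rounded to whole numbers, called normalized counts here. Their sums were 7149102, 7158585 and 7268785 in mice 1, 2 and 3. By the pattern of whole numbers that rounding skips or repeats, the worth of 1 read was put at 0.977, 1.06 and 0.961 normalized counts, which gives about 7320000, 6755000 and 7566000 reads. At this depth a mean of 200 normalized counts rests on roughly as many reads in each mouse, and 29 of the 33 genes reached it. Levels of different genes were compared per kb of the canonical transcript, and other lengths, or no division by length, served as alternatives.

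This level has a ceiling. The authors removed duplicates among single-end reads, so that each start position on a transcript can hold about 1 read, or about 1000 per kb. Of 17475 genes with a known length, 14 (0.0801%) lay above 1000 per kb. Differences between highly expressed genes are therefore compressed on this scale. As an alternative chosen after seeing the data, levels were corrected for used start positions, on the assumption that reads fall evenly along the transcript.

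The libraries differed in ways that touch many genes. Xist, which is transcribed from the inactive X chromosome, had 4, 618 and 869 normalized counts in mice 1, 2 and 3, and the Y-linked gene Ddx3y had 1080, 3 and 1. By both sex-linked genes, mouse 1 had the pattern of a male and mice 2 and 3 that of females. Sex therefore cannot be told apart from other traits of mouse 1. Transcript length also separated the libraries. Among genes whose mean was 200 or more and whose canonical transcripts had 251 to 2351 bases, 7.39% were highest in mouse 3, whereas among those of 5383 bases or more 54.8% were. The median transcript length was 2864 bases for the 29 genes and 3662 bases for all genes with such a mean.

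Markers of other cell types were present beside the endothelial ones. The list of 12 endothelial markers, such as Pecam1 and Cdh5, had a median level of 675.7 ± 15.9 normalized counts per kb (SD, n = 3 mice), and the list of 10 cardiomyocyte markers one of 565.2 ± 18.9, both close enough to the ceiling to be compressed. With the correction for used start positions these medians were 1133 and 836 per kb. The cardiomyocyte markers summed to 20679, 21339 and 24237 normalized counts in mice 1, 2 and 3, and none of them was at 0 in any mouse. This sum holds the long transcripts Ttn, with 7379, 7743 and 10190, and Ryr2, with 3280, 3667 and 4486. In contrast, Tnni3, Actc1, Myl2, Myl3, Mb and Pln were lowest in mouse 3. The median per kb of the cardiomyocyte list was 570.6, 580.8 and 544.2 in mice 1, 2 and 3. Medians per kb were 97.4 ± 11.9 for 7 fibroblast markers, 46.0 ± 5.6 for 8 mural cell markers, 27.8 ± 8.6 for 7 leukocyte markers and 74.2 ± 8.0 for the 5 of 6 erythroid markers that were listed (SD, n = 3). From 34.9% to 68.7% of the windows of read length in the 4 globin genes recur exactly at another place in the genome, and with copied windows left out the erythroid median was 229.7 per kb. Summed counts in mice 1, 2 and 3 were 2659, 3172 and 3531 for fibroblast markers, 711, 966 and 960 for leukocyte markers, 1610, 2002 and 2274 for mural markers and 331, 334 and 369 for erythroid markers. Lowest in mouse 1 were 7 of 7 leukocyte, 5 of 7 fibroblast and 5 of 8 mural markers. Among those with a mean of 200 or more the counts were 2 of 2, 4 of 6 and 3 of 5, against 31.8% of all 9358 genes with such a mean. The study itself assessed enrichment by qRT-PCR of Cdh5, Pecam1, Myh6, Ptprc and Pdgfra in immunoprecipitate against input, in a figure whose values are not printed in its text. The marker levels given here are not such ratios and do not measure enrichment. How much of each glycolytic transcript came from cardiomyocytes or other cells was not tested, since no input library was at hand.

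The genes spanned a wide range of levels. The median level of the 33 genes was 130.4 normalized counts per kb, against 103.9 for the 14236 protein-coding genes with a known length. Among genes with a mean of 200 or more, the medians were 179.3 per kb for the 29 glycolysis genes and 176.0 for protein-coding genes. Of the 33 genes, 23 lay above the median of 103.9 and 13 above its upper quartile of 223.4 per kb. The highest levels per kb belonged to Aldoa at 789.8 ± 29.9, Ldha at 669.8 ± 44.6, Gpi1 at 471.6 ± 20.9, Tpi1 at 460.9 ± 38.0 and Pkm at 441.2 ± 25.9 (SD, n = 3). Aldoa exceeded Ldha, and Ldha exceeded Gpi1, by more than the larger SD, whereas Gpi1, Tpi1 and Pkm followed each other within their spread. The top of the order changed with length. With copied windows left out, Pkm at 603.4 per kb lay above Gpi1 at 567.8 and Tpi1 at 556.5. With coding length Aldoa and Ldha, at 1093 and 1068 per kb, were no further apart than the SD, and with all annotated exons joined Tpi1 at 267.3 and Pgam2 at 263.9 lay above Ldha at 224.5 and Aldoa at 221.9 per kb. In the whole order of levels, 10 of 32 pairs of neighbours were further apart than the larger SD of the pair. From Pdk1 down to Slc2a1, 11 genes between 130.4 and 80.6 per kb followed each other within their spread. The lowest were Slc2a3, Pfkfb4 and Aldoc, and Slc2a3 and Pfkfb4 each exceeded the next lower gene by more than the larger SD.

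**Figure D1:**
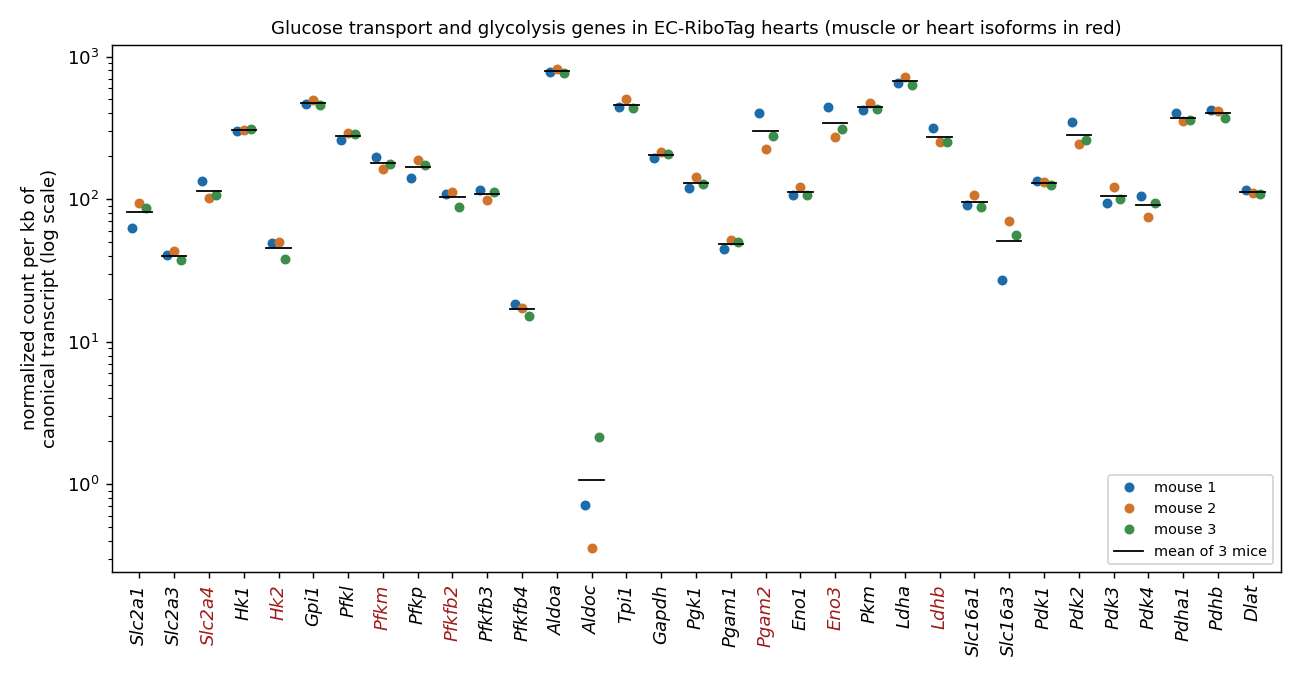
Normalized counts per kb of canonical transcript (log scale) of the 33 genes in pathway order, with points for each of the 3 mice and a black line for their mean; names of the 7 muscle or heart isoforms are red. Aldoa and Ldha are highest at 789.8 and 669.8 per kb, and Aldoc is lowest at 1.08 per kb.

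Of the glucose transporters, Slc2a1 encodes GLUT1, the transporter of the endothelium, and Slc2a4 encodes GLUT4, the insulin-responsive transporter of muscle and fat. Slc2a1 (ENSMUSG00000028645, plus strand of chromosome 4 of GRCm39 from 118965908 to 118995180) had 277, 415 and 383 normalized counts in mice 1, 2 and 3. Slc2a4 (ENSMUSG00000018566, minus strand of chromosome 11 from 69833365 to 69839014) had 348, 267 and 281. Mouse 1 was thus the lowest for Slc2a1 and the highest for Slc2a4. Per kb the mean levels were 80.6 ± 16.3 for Slc2a1 and 114.4 ± 16.6 for Slc2a4 (SD, n = 3). The log2 ratio of Slc2a1 to Slc2a4 per kb was -1.10, -0.13 and -0.32 in mice 1, 2 and 3. Slc2a4 was the higher of the pair in each mouse on this scale, and the mean was -0.52 ± 0.51 (SD, n = 3, two-sided p = 0.25 in an exact permutation test that flips signs). With 3 mice this test cannot give a p below 0.25, so no ratio reported here can pass 0.05. The sign depended on the length used, since the mean log2 ratio was 0.40 with all annotated exons joined, 0.30 with coding length and 0.25 without division by length. Which GLUT transcript was more abundant can therefore not be told from these values. Slc2a3, which encodes the high-affinity transporter GLUT3, was lower, with 160, 170 and 147 normalized counts and a level of 40.2 ± 2.9 per kb (SD, n = 3).

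Hexokinase 1, the widely expressed form, far exceeded hexokinase 2, the form of insulin-sensitive muscle. Hk1 had 1280, 1298 and 1339 normalized counts in mice 1, 2 and 3, a spread of 2.32% of its mean. Hk2 had 381, 390 and 295. Hk1 was nearly level across mice, and Hk2 was lowest in mouse 3, so the gap was widest there. The log2 ratio of Hk1 to Hk2 per kb was 2.61, 2.60 and 3.05, with a mean of 2.75 ± 0.25 (SD, n = 3, exact sign-flip p = 0.25), which is 6.74-fold. It was positive with each length tried, at 1.80 with all annotated exons joined and 1.89 with coding length. Gpi1, which encodes glucose phosphate isomerase, the next enzyme, had 1350, 1437 and 1320 normalized counts and was nearly level across mice.

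Phosphofructokinase commits sugar to glycolysis and is built from liver, muscle and platelet subunits. Pfkl, the liver type, had 1069, 1185 and 1169 normalized counts in mice 1, 2 and 3. Pfkm, the muscle type, had 795, 654 and 701, and Pfkp, the platelet type, had 610, 805 and 744. All 3 subunits were thus present in each mouse, and mouse 1 was lowest for Pfkl and Pfkp but highest for Pfkm. Per kb, Pfkl exceeded Pfkm in each mouse, with log2 ratios of 0.39, 0.82 and 0.70 and a mean of 0.64 ± 0.22 (SD, n = 3, exact sign-flip p = 0.25). With all annotated exons joined that mean was 0.15, with both signs among the mice (exact sign-flip p = 0.5, n = 3). Pfkp and Pfkm were not separated with canonical length, with log2 ratios per kb of -0.49, 0.19 and -0.02 and a mean of -0.11 ± 0.35 (SD, n = 3, exact sign-flip p = 0.75). Without mouse 1 that mean was 0.085, and with all annotated exons joined it was -0.88, with Pfkm the higher in each mouse (exact sign-flip p = 0.25, n = 3).

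The bifunctional Pfkfb enzymes make and remove fructose 2,6-bisphosphate, the activator of phosphofructokinase. Pfkfb3, the form tied to endothelial glycolysis in angiogenesis, had 657, 557 and 638 normalized counts in mice 1, 2 and 3, and Pfkfb2, the heart form, had 331, 345 and 270. Divided by length, both transcripts were level, because the canonical transcript of Pfkfb3 has 5644 bases and that of Pfkfb2 has 3060. The log2 ratio per kb was 0.11, -0.19 and 0.36 in mice 1, 2 and 3, with a mean of 0.09 ± 0.28 (SD, n = 3, exact sign-flip p = 0.75), and it was -0.043 without mouse 3. The mean ratio depended on the length used, and was 1.48 with all annotated exons joined and 0.92 with coding length. Pfkfb4 was rare, with 64, 60 and 53 normalized counts.

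Aldolase splits fructose 1,6-bisphosphate, and Aldoa, the form of muscle and most tissues, supplied nearly all of its transcript here. Aldoa (ENSMUSG00000030695, minus strand of chromosome 7 from 126394406 to 126399923) had 1179, 1244 and 1157 normalized counts in mice 1, 2 and 3. Aldoc, the brain form, had 2, 1 and 6. Aldoa was nearly level across mice, and Aldoc was close to 0 in all of them. Summed over mice, 3580 against 9 normalized counts gave a ratio per kb of 733.4, with a 95% exact Clopper-Pearson interval from 385.9 to 1605, which covers counting error only and treats normalized counts as reads. Mouse 3 supplied 6 of the 9 Aldoc counts. The mean log2 ratio per kb within mice was 9.91 ± 1.35 (SD, n = 3), 10.62 without mouse 3, 9.28 without mouse 2 and 8.16 with a pseudocount of 5. It was 9.02 with coding length and 8.82 with all annotated exons joined. Aldoa also stood nearest to the ceiling of the 33 genes, and corrected for used start positions its level was 1563 instead of 789.8 per kb. A further gene of the table carries the symbol Aldoa (ENSMUSG00000114515, minus strand of chromosome 7 from 126399962 to 126408280) and had 14, 21 and 25 normalized counts. Its identifier is named Gm57854 in the newer annotation, and it was not counted among the 33 genes.

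For the next enzymes of the payoff phase, most of the transcript recurs exactly at other places in the mouse genome. Gapdh, which encodes glyceraldehyde phosphate dehydrogenase, had only 275, 304 and 293 normalized counts in mice 1, 2 and 3. Pgk1, phosphoglycerate kinase on the X chromosome, had 219, 262 and 232, and Pgam1, the non-muscle phosphoglycerate mutase, had 80, 93 and 90. The levels of these 3 genes were 204.7 ± 10.3, 130.2 ± 12.1 and 48.8 ± 3.8 per kb (SD, n = 3), below those of Aldoa, Ldha, Gpi1, Tpi1 and Pkm. Gapdh lay above the median of the 33 genes, 130.4 per kb, Pgk1 close to it and Pgam1 below it. Their spread between mice was 5.04%, 9.28% and 7.76% of the mean. Of the windows of 72 bases, the read length, along their canonical transcripts, 85.4% in Gapdh, 91.4% in Pgk1 and 91.0% in Pgam1 had an exact copy elsewhere in GRCm39. Eno1 followed with 58.3%, whereas 19 of the 33 genes had no such window. Smaller shares were copied in Pkm (24.7%), Pdhb (21.0%), Ldhb (17.4%), Gpi1 (14.9%), Tpi1 (13.3%) and Ldha (11.3%). Reads that map to several places were removed by the authors, so that Gapdh, Pgk1, Pgam1 and Eno1 are undercounted by an unknown amount. The counts of the genes with smaller copied shares can be too low as well.

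The copies are spliced, so that reads across exon junctions match them too. To show this, a coding window of 72 bases that crosses an exon junction and has an exact copy elsewhere is printed for each of the 3 genes with the most copied transcript, with the 3 bases on either side of the junction in capitals, from the GENCODE transcript sequences.
Gapdh, coding bases 287 to 358: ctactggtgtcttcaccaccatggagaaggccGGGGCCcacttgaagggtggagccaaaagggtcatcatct
Pgk1, coding bases 19 to 90: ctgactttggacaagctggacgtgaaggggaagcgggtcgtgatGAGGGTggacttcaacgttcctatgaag
Pgam1, coding bases 369 to 440: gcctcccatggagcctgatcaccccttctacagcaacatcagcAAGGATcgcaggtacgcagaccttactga
The Gapdh window had 43 exact copies elsewhere in GRCm39, 40 of them within annotated pseudogenes, such as Gm29667 on the plus strand of chr1:100210814-100210885. The Pgk1 window had 2 copies, of which the one in Pgk1-rs7 lies on the minus strand of chr12:10950152-10950223, and the Pgam1 window had 3, of which the one in Pgam1-ps1 lies on the minus strand of chr11:21633627-21633698. In each of these copies the bases on both sides of the junction are joined without the intron.

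Dividing by the windows without a copy, in place of transcript length, gave 1.48 normalized counts per window for Gapdh and 1.58 for Pgk1, against 0.85 for Aldoa. The values of Gapdh and Pgk1 exceed the roughly 1 read that a start position can hold. Whether reads were also counted outside those windows was not tested. Where junctions are annotated, an aligner can place a read across a junction at the spliced gene even where a processed copy exists. With windows that are unique or cross a junction, an alternative chosen after seeing the data, the values were 0.55 for Gapdh, 0.30 for Pgk1 and 0.25 for Pgam1 per window, against 0.84 for Aldoa and 0.75 for Ldha. Gapdh was thus below Aldoa per kb and per unique or junction-spanning window, but above it per unique window, and these values do not settle the order of the pair.

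Phosphoglycerate mutase and enolase each have a muscle isoform, and both muscle isoforms varied strongly between mice. Pgam2 (ENSMUSG00000020475, minus strand of chromosome 11 from 5751640 to 5753733) had 347, 196 and 240 normalized counts in mice 1, 2 and 3. Eno3 (ENSMUSG00000060600, plus strand of chromosome 11 from 70548028 to 70553339) had 771, 474 and 540. The order of the mice was the same for both genes, with mouse 1 well above the others and mouse 2 lowest. Eno1, the enolase of most tissues, had 244, 281 and 247, and was nearly level with mouse 2 highest. Per kb, Pgam2 exceeded Pgam1 and Eno3 exceeded Eno1 in each mouse. The mean log2 ratio per kb was -2.58 ± 0.53 for Pgam1 to Pgam2 and -1.58 ± 0.46 for Eno1 to Eno3 (SD, n = 3, exact sign-flip p = 0.25 for each). Both ratios rest on a first gene whose transcript is mostly copied elsewhere. For Pgam1 to Pgam2 the mean was 0.82 with unique windows and -0.37 with windows that are unique or cross a junction, so its direction is not settled. For Eno1 to Eno3 it was negative with each length tried, from -2.25 with all annotated exons joined to -0.33 ± 0.46 with unique windows (SD, n = 3). With unique windows the value lay within its spread and mouse 2 had the opposite sign (exact sign-flip p = 0.5, n = 3).

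Pkm, whose splice forms encode the pyruvate kinases of muscle and of most dividing cells, had 1032, 1152 and 1056 normalized counts in mice 1, 2 and 3. The splice forms cannot be separated in counts per gene. Lactate dehydrogenase is built from the A subunit, prevalent in glycolytic tissue, and the B subunit, prevalent in heart muscle. Ldha (ENSMUSG00000063229, plus strand of chromosome 7 from 46490899 to 46505051) had 1037, 1144 and 1010 normalized counts in mice 1, 2 and 3, and Ldhb (ENSMUSG00000030246, minus strand of chromosome 6 from 142435975 to 142453683) had 486, 382 and 382. Ldhb was highest in mouse 1 and level in mice 2 and 3, whereas Ldha was highest in mouse 2. Ldha exceeded Ldhb per kb in each mouse, with log2 ratios of 1.04, 1.53 and 1.35 and a mean of 1.30 ± 0.25 (SD, n = 3, exact sign-flip p = 0.25). This 2.47-fold ratio is compressed by the ceiling on Ldha, and it was 3.50-fold with the correction for used start positions. The log2 ratio stayed between 1.20 and 1.81 over all lengths and corrections tried.

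Lactate leaves cells through monocarboxylate transporters. Slc16a1 encodes MCT1, which is found in many tissues and in heart, and Slc16a3 encodes MCT4, the exporter of strongly glycolytic cells. Slc16a3 (ENSMUSG00000025161, plus strand of chromosome 11 from 120839306 to 120851694) had 127, 332 and 262 normalized counts in mice 1, 2 and 3. Slc16a1 had 419, 489 and 404. Mouse 1 was far below the other mice for Slc16a3, while Slc16a1 was highest in mouse 2 and similar in the others. The log2 ratio of Slc16a1 to Slc16a3 per kb was 1.75, 0.59 and 0.66, with a mean of 1.00 ± 0.65 (SD, n = 3, exact sign-flip p = 0.25). MCT1 transcript was thus the higher of the pair in each mouse on this scale, and mouse 1 had the widest gap. The mean was 0.62 without mouse 1, 0.90 with coding length and 2.07 with all annotated exons joined.

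Pyruvate dehydrogenase was represented by Pdha1 and Pdhb, the subunits of its first enzyme, and Dlat, the acetyltransferase of its core. Pdha1 had 1143, 1009 and 1028 normalized counts in mice 1, 2 and 3, Pdhb had 640, 630 and 562, and Dlat had 772, 742 and 730. All 3 genes varied little between mice, and their levels per kb were 370.1 ± 25.3, 401.2 ± 27.9 and 111.5 ± 3.2 (SD, n = 3). Pdha1 and Pdhb thus ranked with the abundant glycolytic enzymes per kb. The 4 kinases that inhibit the complex were all present. Pdk2, the broadly expressed kinase, had 799, 562 and 599 normalized counts in mice 1, 2 and 3. Pdk4, the kinase induced by fasting and fatty acids, had 395, 280 and 352. Pdk1, a target of the hypoxia-inducible factors, had 703, 697 and 660, and Pdk3 had 232, 297 and 245. Pdk2 and Pdk4 were both highest in mouse 1 and lowest in mouse 2, while Pdk1 was level. Per kb, Pdk2 was the highest of the 4 kinases at 283.3 ± 55.3, followed by Pdk1 at 130.4 ± 4.4, Pdk3 at 104.9 ± 14.0 and Pdk4 at 91.1 ± 15.5 (SD, n = 3). Pdk3 and Pdk4 did not differ beyond their spread on this scale. With coding length Pdk4 stood above Pdk3, at 277.0 against 207.2 per kb, and with all annotated exons joined Pdk4 was the highest of the kinases at 90.2 per kb, against 78.0 for Pdk1, 76.0 for Pdk2 and 31.3 for Pdk3. The log2 ratio per kb of Pdk2 to Pdk4 was 1.72, 1.71 and 1.47 in mice 1, 2 and 3, and that of Pdk2 to Pdk1 was 1.38, 0.88 and 1.05. Both were positive in each mouse, with a mean log2 ratio of 1.63 ± 0.14 against Pdk4 and a mean fold of 2.15 against Pdk1 (SD, n = 3, exact sign-flip p = 0.25 for each). Against Pdk4 the mean was 0.95 with coding length, 0.93 without division by length and -0.25 with all annotated exons joined. Against Pdk1 it was 0.0041, -0.089 and -0.054 with the same settings, so the order of Pdk2 and Pdk1 is not settled. Pdha1 exceeded Pdk4 per kb by 2.04 ± 0.18 on the log2 scale (SD, n = 3, exact sign-flip p = 0.25), a difference that stayed positive with each length tried and was smallest with all annotated exons joined, at 1.15.

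**Figure D2:**
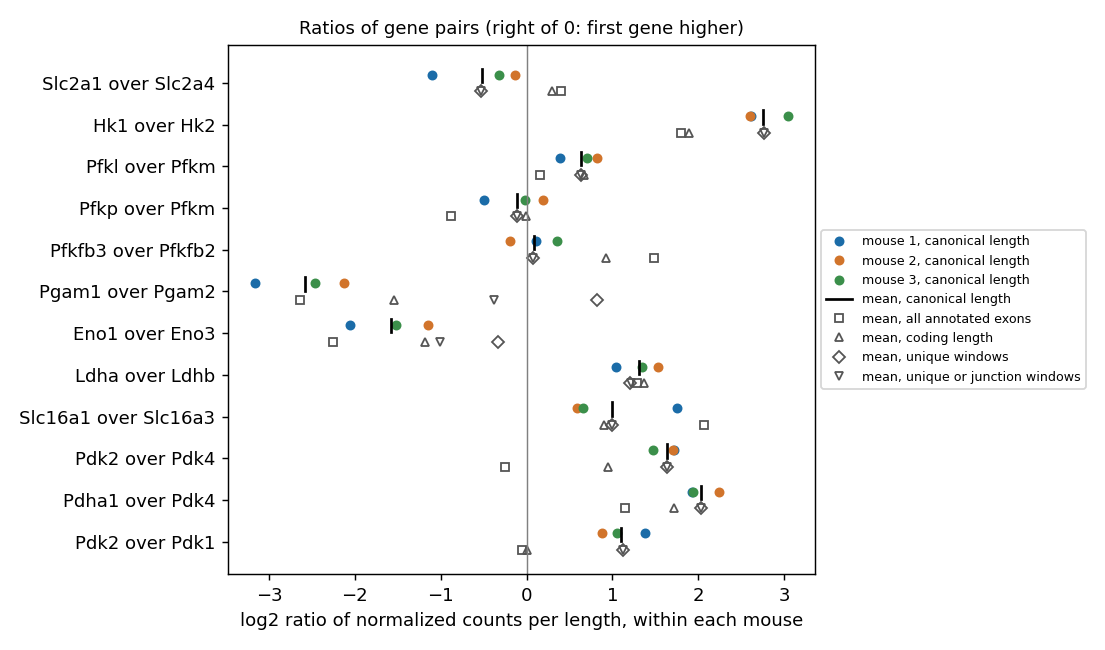
Log2 ratios of normalized counts per length for 12 of the 13 gene pairs, 8 of them a counterpart over a muscle or heart isoform; coloured points are the 3 mice with canonical transcript length, the black line is their mean, and open symbols are means with other lengths. Hk1 over Hk2, Pfkl over Pfkm, Ldha over Ldhb, Slc16a1 over Slc16a3 and Pdha1 over Pdk4 lie right of 0 and Eno1 over Eno3 lies left of 0 with every length drawn, whereas Slc2a1 over Slc2a4, Pgam1 over Pgam2, Pdk2 over Pdk4 and Pdk2 over Pdk1 cross 0 with the length used.

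Taken as lists, the 7 muscle or heart isoforms (Slc2a4, Hk2, Pfkm, Pfkfb2, Pgam2, Eno3 and Ldhb) had a median of 179.3 ± 18.0 normalized counts per kb and their counterparts (Slc2a1, Hk1, Pfkl, Pfkfb3, Pgam1, Eno1 and Ldha) one of 117.3 ± 4.8 (SD, n = 3). The muscle list was not uniformly the higher, since single pairs differed in both directions. The log2 ratio of the list medians, counterparts over muscle isoforms, was -0.77, -0.42 and -0.63 in mice 1, 2 and 3, with a mean of -0.61 ± 0.18 (SD, n = 3, exact sign-flip p = 0.25). It was 0.65 with unique windows, 0.42 with windows that are unique or cross a junction, 0.073 with all annotated exons joined and 0.26 with the mean in place of the median. The data thus do not order the isoform lists.

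Of the 7 muscle isoforms, all with means over 200, 5 (Slc2a4, Pfkm, Pgam2, Eno3 and Ldhb) were highest in mouse 1, against 37.6% of the 9358 genes of the table with a mean of 200 or more. That share was larger for short transcripts, at 48.2% for 251 to 2351 bases and 43.4% for 2352 to 3661 bases. Pgam2, Eno3 and Ldhb fall in the shorter of these ranges and Slc2a4 in the other. Of the 6 counterparts with such a mean, 4 (Slc2a1, Hk1, Pfkl and Eno1) were lowest in mouse 1, against 31.8%, and Pfkfb3 was highest there. The spread of Hk1 between mice, 2.32% of its mean, was below the 2.77% of counting error, but neither value allows for the ceiling. Corrected for used start positions, Hk1 was at 364.3 ± 12.3 per kb (SD, n = 3), a scale on which counting error was not worked out. Whether the lists moved in different directions between mice was not tested. Over all 29 genes with such a mean, 12 were highest in mouse 1 and 10 lowest there, both close to the shares of 37.6% and 31.8%. Of the 29, 16 were highest in mouse 2 and 1, Hk1, in mouse 3, against 31.9% and 29.7% of the 9358 genes. None of the 11 glycolysis genes of 251 to 2351 bases and of the 6 of 2352 to 3661 bases was highest in mouse 3, against 7.39% and 20.3% of all genes of those lengths with such a mean. In the longer ranges, where 36.3% (3662 to 5382 bases) and 54.8% (from 5383 bases) of genes were highest in mouse 3, 1 of 9 and 0 of 3 of the glycolysis genes were. Among the cardiomyocyte markers, 6 of 10 were highest and 4 of 10 lowest in mouse 1. Their summed count was lowest there, but this sum holds the long transcripts Ttn and Ryr2, both lowest in mouse 1 and highest in mouse 3. The median per kb of these markers was lowest in mouse 3 instead. The part of transcript length, of sex and of other cell types in the order of the mice was not tested.

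By the coefficient of variation between mice, 4 of the 29 genes exceeded 20%, against 8.0% of the 9358 genes. They were Slc16a3 at 43.4%, Pgam2 at 29.8%, Eno3 at 26.2% and Slc2a1 at 20.2%, and Pdk2 lay just under the threshold at 19.5%. The ceiling compresses this spread too. Corrected for used start positions, Pdk2 was at 335.9 ± 80.7, Eno3 at 426.4 ± 144.8 and Pgam2 at 363.7 ± 133.9 per kb (SD, n = 3). The SD of Pdk2 was then more than 20% of its mean. The count of 4 was not repeated with this correction. Counting error alone would give 6.45% for Slc16a3, 6.19% for Pgam2, 4.10% for Eno3 and 5.28% for Slc2a1. In all 4 genes mouse 1 was the one that stood apart, and without mouse 1 none of the 29 genes exceeded 20%, against 4.84% of the 9396 genes that had a mean of 200 or more in the other mice. The values without mouse 1 were 16.7% for Slc16a3, 14.3% for Pgam2, 9.20% for Eno3 and 5.67% for Slc2a1. Slc16a3 and Slc2a1 were low in mouse 1, and Pgam2 and Eno3 were high there. The median coefficient of variation was 9.28% for the 29 genes and 7.37% for all 9358. Hk1, Dlat and Pdk1 were the steadiest, at 2.32%, 2.89% and 3.39%.

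**Figure D3:**
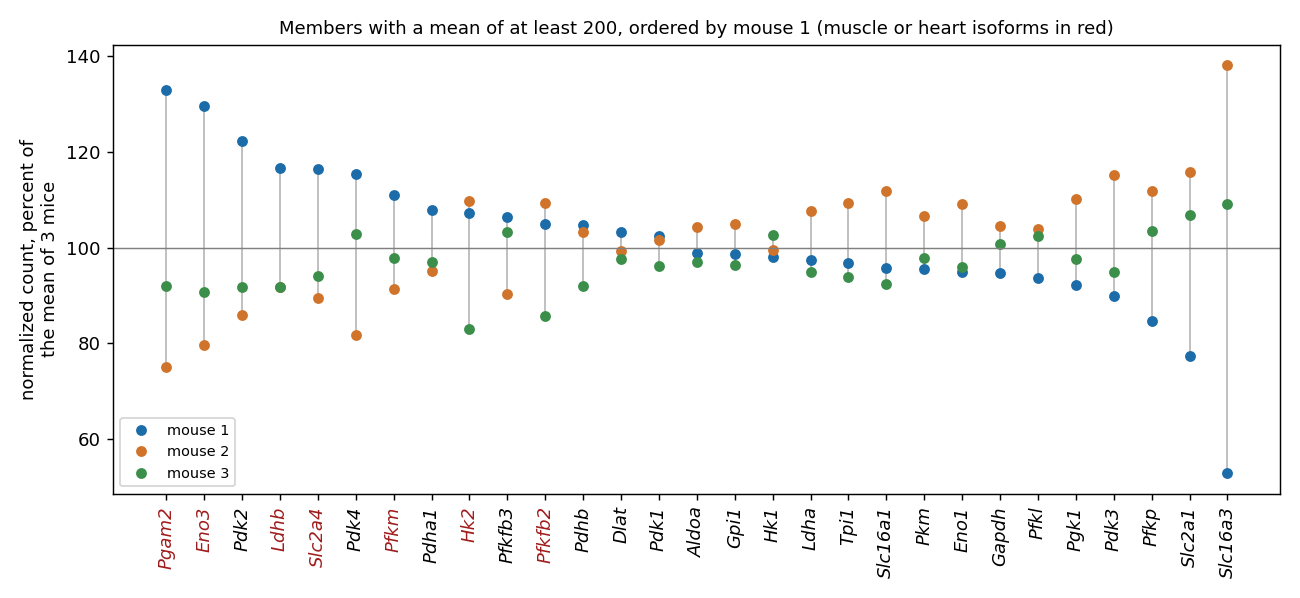
Normalized count of each mouse as a percent of the mean of the 3 mice, for the 29 genes whose mean reached 200, ordered by mouse 1; names of muscle or heart isoforms are red. Pgam2, Eno3 and Pdk2 stand highest in mouse 1 at the left, and Slc2a1 and Slc16a3 lowest in mouse 1 at the right.

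Other genes of glucose metabolism were read from a list of 54, of which 46 were listed in the table and 25 had a mean of at least 200. None of these 25 exceeded a coefficient of variation of 20%, by the same count that called 8.0% of all genes. Slc2a5, Slc5a1, Slc16a8, Hkdc1, Gapdhs, Pgk2, Pklr and Ldhc were not listed in the table, in which each gene reaches at least 4 normalized counts in some mouse. Several genes typical of liver or brain were nearly absent. Slc2a2 had 3, 5 and 1 normalized counts in mice 1, 2 and 3, Fbp1 had 5, 6 and 8, and Eno2 had 11, 17 and 9. Eno1b, a near copy of Eno1, had 42, 46 and 40. Glucose transporters beyond the chosen genes included Slc2a9, which carries urate, with 437, 358 and 411, and Slc2a8 with 357, 304 and 289. Bsg, the chaperone that brings MCT1 and MCT4 to the membrane, had 1061, 1064 and 997 normalized counts and was level across mice.

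The pentose phosphate branch, which yields NADPH and ribose, had 7 of its 7 listed genes at a mean of 200 or more, a level that 9358 of the 17583 genes of the table reached. Its first enzyme, G6pdx, had 323, 266 and 342 normalized counts in mice 1, 2 and 3, and Tkt had 751, 800 and 781. Tigar, a phosphatase that lowers fructose 2,6-bisphosphate, had 441, 412 and 432. Among regulators of the pathway, Epas1, which encodes the endothelial hypoxia-inducible factor HIF-2 alpha, had 3609, 3448 and 3623, and Hif1a had 1054, 1405 and 1235. Epas1 was level across mice, and Hif1a was lowest in mouse 1. Txnip, an inhibitor of glucose uptake, had 2162, 1975 and 2007, and Klf2, a flow-responsive factor that lowers endothelial glycolysis, had 1505, 1523 and 1386. Both were abundant and varied by about 5% of their means. Myc, which activates glycolytic genes in many cells, had 85, 216 and 188, with a mean below 200. It was lowest in mouse 1, as were 31.8% of the 9358 genes with a mean of 200 or more. A link between Myc and the glycolysis genes was not tested.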

How the data were processed

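RNA bound to tagged ribosomes was sequenced from 3 EC-RiboTag hearts in single-end mode with a read length of 72 bases. The deposited unit is a score: the authors trimmed reads with Trimmomatic 0.39, used STAR 2.7.11a and mm39 with the Ensembl annotation for alignment, dropped duplicates (Picard 3.1.1) and reads that were multi-mapping, mitochondrial or ribosomal, counted exonic reads on the correct strand with featureCounts 2.0.4, divided by DESeq2 1.36.0 size factors and rounded. These scores are not raw counts, so no count model was fitted.

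Levels are means and SDs over mice. Canonical, coding and joined exon lengths came from GENCODE vM39, in which 99.4% of the gene identifiers were found, and exact copies of windows from BLAST 2.17.0 searches of GRCm39. Gene coordinates are those of the deposited table. Log2 ratios were taken within each mouse, with a pseudocount of 0.5 only where a value is 0, and tested by an exact sign-flip permutation test. Alternatives were other lengths, a pseudocount of 5, minimum means of 100 and 10, scaling by trimmed means (trimming at each end 30% of the log ratios and 5% of the levels) or to equal totals, medians, and leaving out each mouse. Unique or junction-spanning windows, the correction for used start positions (minus the natural log of the share of unused positions) and other lengths for the order were added after seeing the data. Named genes were all 33 genes, the other genes of glucose metabolism and the marker lists, with Xist and Ddx3y added after values were seen. A listed gene is not reported here. Members and lists were chosen with earlier results of these data known. The estimate of the worth of 1 read, the scaling and the variation rule were tested on simulated data. Software comprised pandas 2.3.3, numpy 2.4.6 and matplotlib 3.10.9 under Python 3.11.15.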

Additional observations from a re-analysis of the deposited data

How the results depend on the processing

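No paired analysis was possible because the 3 mice form a single group that has no other group to be matched with, and only genes were compared within mice.

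With all annotated exons joined, the log2 ratio of Slc2a1 to Slc2a4 was 0.40, that of Pdk2 to Pdk4 -0.25, that of Pdk2 to Pdk1 -0.054 and that of the list medians, counterparts over muscle isoforms, 0.073. With coding length, Slc2a1 to Slc2a4 was 0.30. Without division by length, Slc2a1 to Slc2a4 was 0.25, Pfkp to Pfkm 0.0011 and Pdk2 to Pdk1 -0.089. With unique windows, Pgam1 to Pgam2 was 0.82 and the list medians 0.65, and with unique or junction-spanning windows the list medians were 0.42. With the mean of each list it was 0.26. These signs are opposite to those with canonical length and medians, and the cause was not tested.

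Leaving out each mouse in turn gave -0.26 to 0.085 for Pfkp to Pfkm, -0.043 to 0.23 for Pfkfb3 to Pfkfb2, and 0 to 6 genes with a coefficient of variation over 20%, with 0 when mouse 1 was left out. The other 11 pair ratios kept their sign when any mouse was left out, and all 13 kept it with a pseudocount of 5 and with the correction for used start positions. Of the 33 levels, 28 moved by more than their SD with all annotated exons joined, 32 with coding length, 11 with unique windows, 11 with unique or junction-spanning windows and 14 with that correction. Rescaling by trimmed means or equal totals moved none of the 33 levels by more than its SD.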
